A study of Mus musculus with 6 samples.

Results

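Chemokines and their receptors were examined in 3 liver RNA samples of diabetic and 3 of wildtype male mice. The genes were every measured gene whose mouse symbol begins with Ccl, Cxcl, Xcl, Cx3cl, Ccr, Cxcr, Xcr, Cx3cr, Ackr, Pf4 or Ppbp followed by a digit or by nothing. They came to 50 of the 909 genes named on the array, with 55 of its 1246 probe sets. Shares of all probe sets given below refer to these 1246 and not to the whole transcriptome. A gene with several probe sets was represented by the probe set with the highest mean over the 6 arrays. The diabetic group is described as insulin-deficient, and the wildtype group as healthy. The sources used here give neither strain nor age nor the way in which diabetes arose. The labels call the arrays replicates without saying that each came from its own animal, so the p-values may measure only technical spread. Total liver RNA holds all cell types of the organ, so fewer cells of a type and less RNA per cell cannot be told apart.

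Chemokines are small secreted proteins that direct the movement of leukocytes. They are held on heparan sulfate at the endothelial surface and bind G protein-coupled receptors on the cells they attract. CC and CXC chemokines differ in the spacing of their first cysteines, and the receptors are named after the class they bind. In liver, Cxcl1 and its relatives draw neutrophils through Cxcr2, Cxcl12 retains Cxcr4-bearing cells, and Cxcl13 draws B cells through Cxcr5. The study's design text asks about enzymes of glycosaminoglycan synthesis, and these chains are what immobilise chemokines.

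The promoters of 3 CXC ligands are shown because Cxcl1 and Cxcl13 gave the widest spread among the 50 genes, while Cxcl2 is a close relative of Cxcl1. Each is the stretch of 250 bases before the gene's start in RefSeq's GRCm38.p6 table, on the plus strand: chr5:90890995-90891244 for Cxcl1, chr5:90903649-90903898 for Cxcl2 and chr5:95956689-95956938 for Cxcl13. Capitals mark matches to the NF-kB consensus, the binding sequence of the inflammatory transcription factor NF-kB, or to TATAAA.
Cxcl1: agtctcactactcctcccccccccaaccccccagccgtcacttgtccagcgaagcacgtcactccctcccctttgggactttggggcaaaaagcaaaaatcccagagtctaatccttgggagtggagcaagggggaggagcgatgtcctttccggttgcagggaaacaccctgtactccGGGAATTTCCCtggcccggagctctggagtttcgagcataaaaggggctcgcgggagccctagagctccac
Cxcl2: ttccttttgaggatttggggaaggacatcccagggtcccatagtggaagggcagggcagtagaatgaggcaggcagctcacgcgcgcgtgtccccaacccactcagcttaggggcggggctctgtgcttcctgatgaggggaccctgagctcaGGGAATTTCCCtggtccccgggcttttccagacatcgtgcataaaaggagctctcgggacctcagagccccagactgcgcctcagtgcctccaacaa
Cxcl13: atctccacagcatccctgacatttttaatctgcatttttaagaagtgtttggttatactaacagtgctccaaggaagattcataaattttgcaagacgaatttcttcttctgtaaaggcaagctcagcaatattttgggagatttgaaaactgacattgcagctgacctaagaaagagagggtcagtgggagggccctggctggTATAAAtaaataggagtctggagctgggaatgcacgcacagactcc
Cxcl1 and Cxcl2 both held the match GGGAATTTCC, at -71 to -62 in Cxcl1 and at -97 to -88 in Cxcl2, counted back from the start. At both genes a match on the minus strand overlapped it, shifted by 1 base. Cxcl13 held no NF-kB match in this window and had TATAAA at -46 to -41. The promoter table covered 39 of the 50 genes with 43 promoters. Searched on both strands, 9 of the 43 promoters (20.9%) held the NF-kB consensus, against 7.25% of all 32851 promoters in the table. The shares were 30.2% against 12.4% for TATAAA and 9.30% against 7.02% for the STAT-type motif TTCNNNGAA. A match of letters is a description of the window and not a binding site.

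Values are log2 expression after RMA, which runs from 2.03 to 13.45 here, with array medians between 4.93 and 5.06. The label liver was borne out by the hepatocyte markers that were measured (6 of 12 listed), all 6 above the median of all values, 4.99. Of the chemokine and receptor genes, 15 had means above that median and 35 below it. Signal also depends on the probes, so this is not an order of abundance, and a dim probe set can hide a difference. Wildtype 2 stood apart from the other arrays: 40 of 1246 probe sets lay over 0.5 above or below all others there, against 1 to 21 on each of the other arrays. Among the 50 genes this concerned Cxcr2 on wildtype 2 and Cxcl1 and Cxcl13 on diabetic 3.

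**Figure D1:**
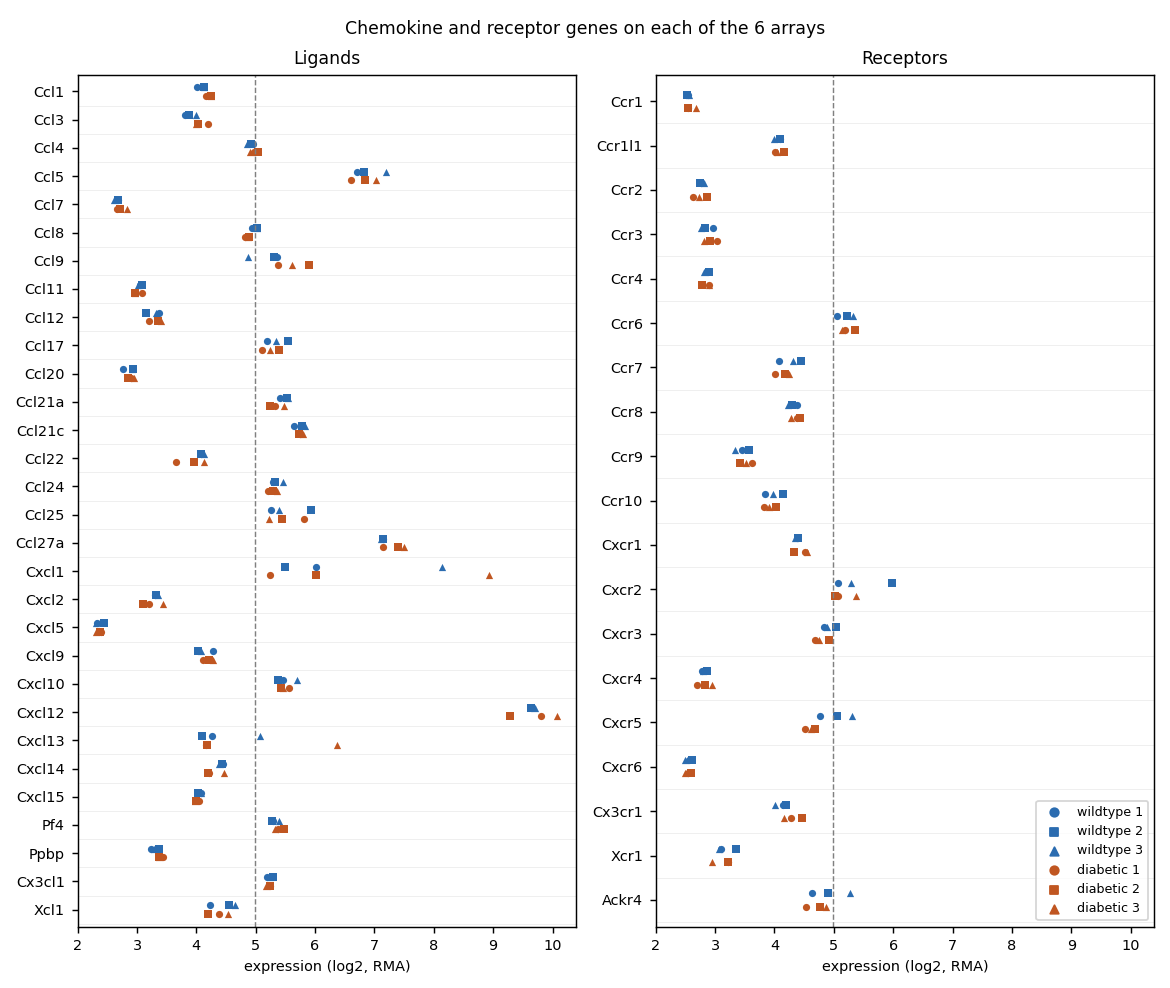
Log2 expression (horizontal axis) of the chemokine and receptor genes on each array, blue for wildtype and orange for diabetic, with the symbol giving the replicate number and the dashed line the median of all values, 4.99. The triangles of Cxcl1 (8.13 and 8.94) and Cxcl13 (5.07 and 6.37), the arrays numbered 3 of both groups, lie to the right of the other points.

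No chemokine or receptor gene passed the test between diabetic and wildtype liver. Of the 50 genes, 25 had a higher and 25 a lower mean in diabetic liver, beside 50.6% of all probe sets with a higher mean, with a median difference of 0.0029 on the log2 scale, against 0.0020 over all 1246 probe sets. The differences ran from -0.44 for Cxcr5, the B cell and follicular T cell receptor for Cxcl13, to 0.45 for Ccl9, a CC ligand that attracts monocytes and dendritic cells through Ccr1. By limma, 0 of the 50 had an adjusted p under 0.05, beside 0.321% of all probe sets, and the smallest adjusted p was 0.928. With the replicate number as a block, 0 of the 50 passed, beside 0% of all probe sets, and the smallest adjusted p was 0.822. At an unadjusted p under 0.05 limma gave 2 of the 50 genes, or 4%, against 2.97% of all probe sets: Ccl9 higher (1.85% of all probe sets) and Cxcr5 lower (1.12%). With the block 1 gene, Cxcr5, did so, against 4.33%. The groups did not overlap for 4 of the 50 genes, or 8%, against 7.87% of all probe sets. Ccl9 and Ccl1 were higher in diabetic liver (4.57% of all probe sets) and Cxcr5 and Ccl8 lower (3.29%). Both shares lie near their background.

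**Figure D2:**
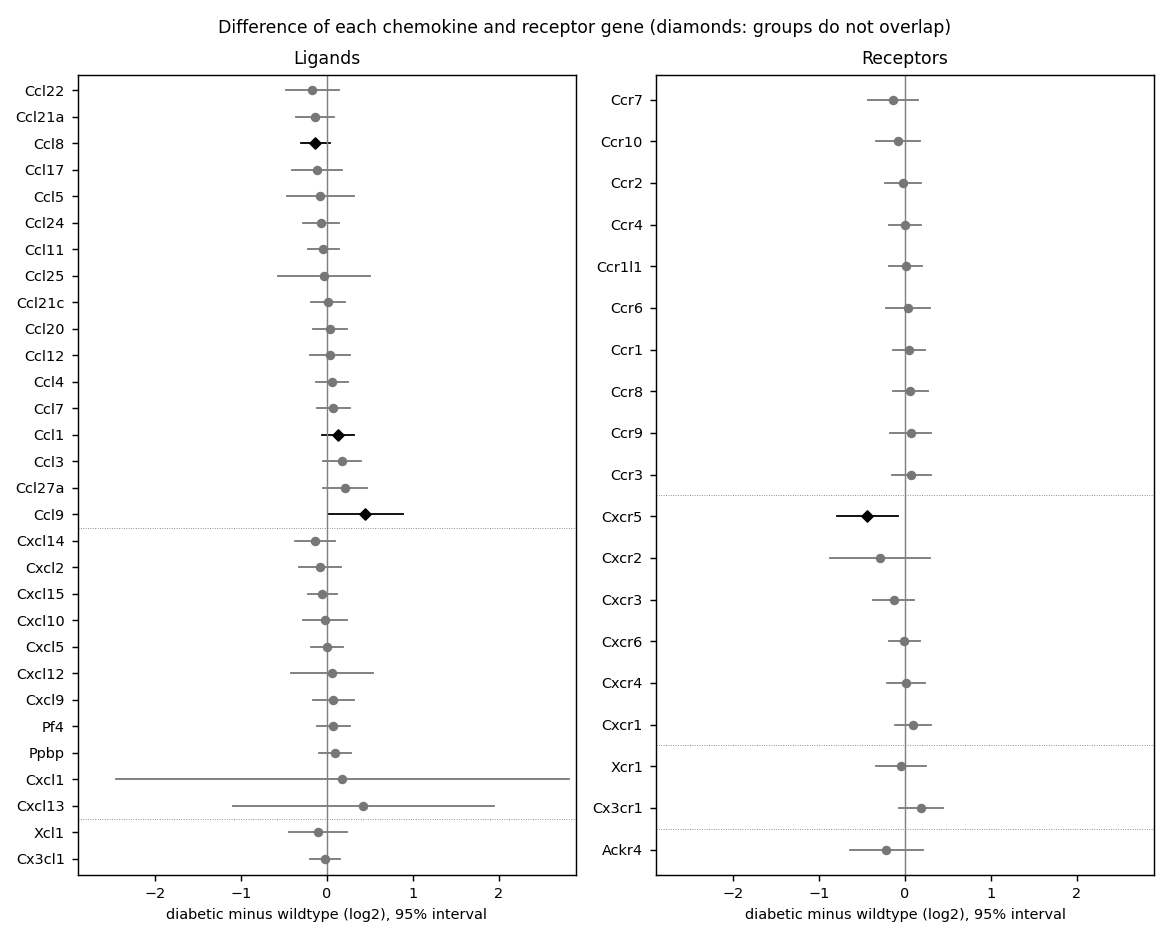
Difference of diabetic minus wildtype liver (log2, horizontal axis) by gene with its 95% confidence interval from limma, ordered by size within each class, with black diamonds for genes whose groups do not overlap. Most intervals cross 0; the widest belong to Cxcl1 (-2.46 to 2.81) and Cxcl13 (-1.09 to 1.94).

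The intervals bound what the 6 arrays could show. For 42 of the 50 genes the 95% confidence interval excluded a change of 0.5 in either direction, beside 71.4% of all probe sets. For 48 it excluded a change of 1, beside 93.2%. The exceptions at the wider bound were Cxcl1 and Cxcl13. Because 35 of the 50 genes were dim, a narrow interval does not show that such a gene's RNA was equal in both groups.

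Among CXC ligands, Cxcl1, the neutrophil attractant that liver makes in acute injury, gave 6.02, 5.50 and 8.13 on wildtype 1, 2 and 3. On diabetic 1, 2 and 3 it gave 5.23, 6.01 and 8.94. The groups overlapped throughout, and the high arrays were those numbered 3 in both groups. Diabetic livers averaged 6.73 ± 1.95 and wildtype livers 6.55 ± 1.40 (SD, n = 3 each), a difference of 0.18 (SE 1.09; limma adjusted p = 0.990). The sign depended on single arrays, with -0.93 without diabetic 3 and 0.97 without wildtype 3. Without both arrays numbered 3 the difference was -0.14.

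The B cell attractant Cxcl13, below the array median on most arrays, gave 4.27, 4.10 and 5.07 on wildtype 1 to 3 and 4.17, 4.17 and 6.37 on diabetic 1 to 3. It too was highest on the array numbered 3 within each group, and the other 4 arrays lay between 4.10 and 4.27. The difference between groups was 0.42 (SE 0.63; limma adjusted p = 0.975), which was -0.31 without diabetic 3 and -0.012 without both arrays numbered 3. The within-group SD, pooled over both groups, was 1.70 for Cxcl1 and 0.97 for Cxcl13. These ranked 2 and 5 among the 1246 probe sets, while the median over the 50 genes was 0.11 and over all probe sets 0.14.

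**Figure D3:**
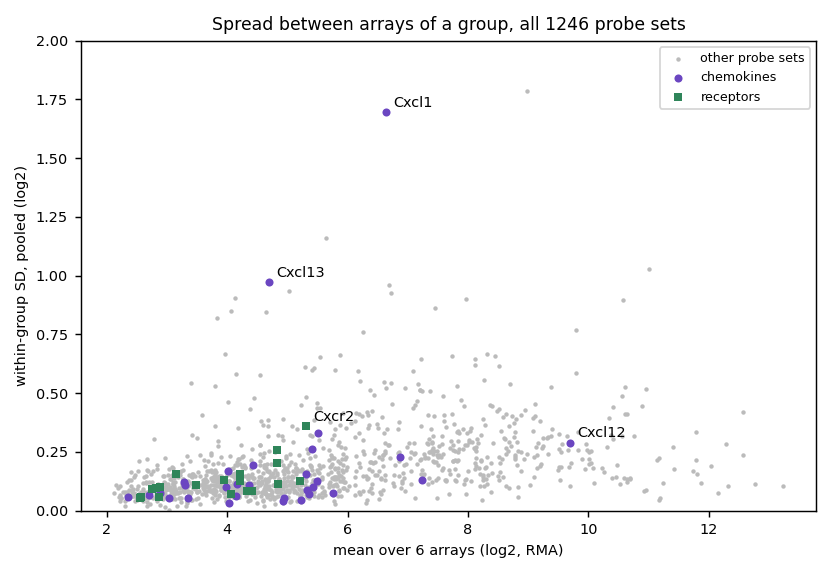
Within-group SD pooled over both groups (vertical axis, log2) against the mean over 6 arrays (horizontal axis, log2) for every probe set, with chemokines as purple circles and receptors as green squares. Cxcl1 at 1.70 and Cxcl13 at 0.97 stand far above the other chemokine and receptor genes, whose next highest is Cxcr2 at 0.36.

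The arrays that share a replicate number were then set side by side. The mean of Cxcl1 over the arrays numbered 3 was 2.84 above its mean over the other 4, or 7.18-fold, and that of Cxcl13 was 1.55 above, or 2.93-fold. Both arrays numbered 3 lay at least 1 above all others for 2 of the 1246 probe sets, or 0.161%, namely Cxcl1 and Vcam1. Both arrays numbered 1 did so for 2 probe sets as well, Lgalsl and Piga, and those numbered 2 for 0. Vcam1, the endothelial adhesion molecule that captures rolling leukocytes, gave 3.45, 3.24 and 4.91 on wildtype 1 to 3 and 3.24, 3.54 and 4.60 on diabetic 1 to 3. At a gap of at least 0.5 the arrays numbered 3 had 7 probe sets (0.562%), which added Cxcl13 (gap 0.81), Igfbp7, Clec1b, Adgre4 and Clec4a3. Those numbered 1 had 3 and those numbered 2 had 0. What the arrays of a number have in common is not stated in the labels.

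Other chemokine genes showed smaller gaps in the same arrays. With any gap counted, 9 of the 50 genes (18%) were higher on both arrays numbered 3 than on all others, against 6.66% of all probe sets. Lower on both were 6 (12%), against 7.70%. For number 1 the counts were 1 (2%) higher and 7 (14%) lower, against 7.95% and 12.6% of all probe sets. For number 2 they were 6 (12%) higher and 1 (2%) lower, against 7.70% and 3.77%. The 9 higher on the arrays numbered 3 included Cxcl1, Cxcl13, Cxcl2, Ccl5, Ccl21c, Ccl22, Ccl24 and Ccr1. The T cell attractant Ccl5 gave 6.70, 6.83 and 7.19 in wildtype and 6.61, 6.85 and 7.02 in diabetic liver. Its gap was 0.18, beside 2.11 for Cxcl1. Cxcl2, which shares the receptor Cxcr2 and the NF-kB match with Cxcl1, was dim, at 3.30, 3.32 and 3.36 in wildtype and 3.21, 3.11 and 3.44 in diabetic liver, with a gap of 0.031.

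**Figure D4:**
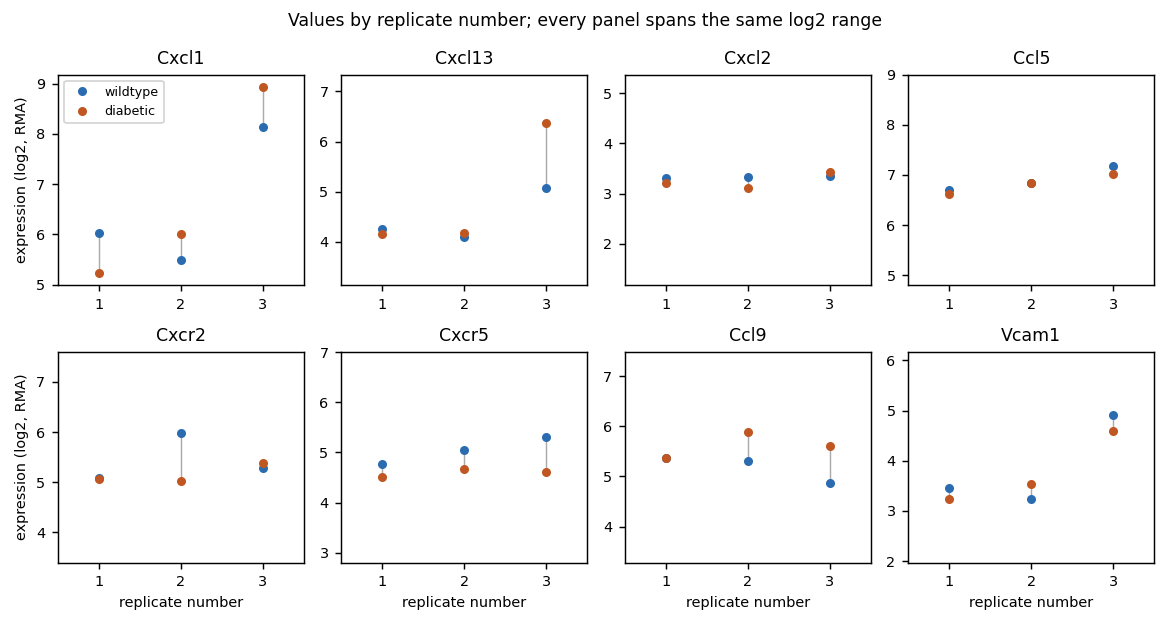
Log2 expression (vertical axis) by replicate number (horizontal axis) for 8 genes, blue for wildtype and orange for diabetic, with a grey line joining arrays of the same number; all panels span the same range. Cxcl1, Cxcl13 and Vcam1 are highest at number 3 in both groups, whereas the groups of Cxcr5 and Ccl9 do not overlap.

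Some markers of other liver cells were also higher on both arrays numbered 3, a pattern that 6.66% of all probe sets had. Of the 6 measured macrophage markers of 13 listed, 5 were higher on both arrays numbered 3 than on all others (Adgre1, Cd74, Csf1r, Mrc1 and Siglec1). Their mean log2 level lay between 6.17 and 6.36 on the arrays numbered 3 and between 5.59 and 5.77 on the others. Both measured endothelial markers, Clec4g and Pecam1, were higher there too, at list means of 7.51 to 7.56 against 6.95 to 7.26. The Kupffer cell lectin Clec4f was the macrophage marker without this pattern. The lists for neutrophils (2 measured of 10) and for T, B and NK cells (6 of 18) held 0 such genes, at list means of 4.99 to 5.27 against 5.08 to 5.23 and of 3.83 to 3.90 against 3.76 to 3.90. Of 6 measured hepatocyte markers 0 had the pattern, of 7 dendritic cell markers 1, and of 4 stellate cell markers 2. Some genes with the pattern had small gaps. Siglec1 gave 4.84 on wildtype 3 and 4.88 on diabetic 3, against 4.81 on wildtype 2. Pecam1 gave 5.96 on wildtype 3 and 6.17 on diabetic 3, against 5.89 on wildtype 1. The part of these cell types in the values of Cxcl1 and Cxcl13 was not tested.

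Deviations from the group means were also correlated over the 50 genes. Pearson's r was 0.883 between wildtype 3 and diabetic 3, 0.599 between the arrays numbered 2 and 0.473 between those numbered 1 (Spearman's rho 0.458, 0.233 and 0.177). Arrays of different numbers gave r from -0.853 to 0.795, the highest for wildtype 2 with diabetic 1, so that numbers 1 and 2 did not stand out from different-number pairs. Without Cxcl1 and Cxcl13, left out after their values were seen, r was 0.365, 0.025 and -0.017 over 48 genes. Spearman's rho over these 48 was 0.387, 0.133 and 0.082. Different-number pairs there gave r from -0.2455 to 0.2433 and rho from -0.259 to 0.117. Over all 1246 probe sets r was 0.162 for number 3, 0.138 for number 2 and 0.397 for number 1 (Spearman's rho -0.0083, 0.026 and 0.377). The genes share the same arrays, and deviations within a group sum to 0, so these values are a description of 6 arrays. The r of 0.883 for number 3 rested largely on Cxcl1 and Cxcl13, while 0.365 remained without them.

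Of the other CXC ligands, Cxcl12, the homeostatic ligand of Cxcr4, was bright at both of its probe sets, which gave opposite signs. The brighter gave 9.63, 9.63 and 9.71 in wildtype and 9.81, 9.28 and 10.07 in diabetic liver, a difference of 0.062. The other, designed on another RefSeq transcript of the gene, gave 9.74, 9.05 and 9.48 against 9.18, 8.86 and 9.12, a difference of -0.37 that was negative within each number. At the brighter probe set diabetic 2 was the lowest array and diabetic 3 the highest. At the other, limma's unadjusted p was 0.0963 and with the replicate block 0.0195 (adjusted p = 0.928 and 0.822).

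The interferon-induced ligands of Cxcr3, which draw activated T cells, differed by -0.020 for Cxcl10 and 0.072 for Cxcl9. Cxcl5, an epithelial neutrophil attractant, differed by -0.0020, Cxcl2 by -0.079 and Cxcl14 by -0.14. The platelet chemokines Pf4 and Ppbp, which are released from platelet granules, differed by 0.073 and 0.093, and Cxcl15 by -0.057. Of the 11 CXC ligands 6 had a higher and 5 a lower mean, and 0 passed. The groups overlapped for all 11.

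Of the 17 CC ligands 9 had a higher and 8 a lower mean in diabetic liver. Ccl9 gave 5.37, 5.31 and 4.88 on wildtype 1 to 3 and 5.38, 5.90 and 5.61 on diabetic 1 to 3. No wildtype value reached the lowest diabetic value, but diabetic 1 and wildtype 1 were almost equal. The means were 5.63 ± 0.26 against 5.18 ± 0.27 (SD, n = 3 per group), 1.36-fold or 0.45 apart, and the 95% interval ran from 0.0068 to 0.88 (limma unadjusted p = 0.0474, adjusted p = 0.928). The difference ran from 0.29 without wildtype 3 to 0.57 without diabetic 1, and with the replicate block limma's unadjusted p was 0.0525. The probe set's suffix marks possible cross-hybridisation.

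Ccl8 and Ccl1, both ligands of Ccr8 in mouse, also had groups without overlap, in opposite directions and by small amounts. Ccl8 gave 4.94, 5.02 and 5.02 in wildtype and 4.83, 4.88 and 4.87 in diabetic liver, a difference of -0.13 (SE 0.071). Ccl1, which activated T cells make, gave 4.01, 4.13 and 4.13 in wildtype and 4.16, 4.24 and 4.25 in diabetic liver, a difference of 0.13 (SE 0.078). Limma's unadjusted p was 0.105 for Ccl8 and 0.145 for Ccl1 (adjusted p = 0.928 for each). Ccr8 itself differed by 0.063.

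Ccl27a, known as a skin T cell attractant, had 3 probe sets, whose differences were 0.21, 0.18 and 0.059. At the first of these the wildtype arrays gave 7.15, 7.14 and 7.12 and the diabetic arrays 7.14, 7.40 and 7.49, so that diabetic 1 lay within the wildtype range. The inflammatory ligands Ccl3 and Ccl4, which macrophages make, differed by 0.18 and 0.058, and Ccl5 by -0.079. The monocyte attractants Ccl7 and Ccl12, ligands of Ccr2, differed by 0.075 and 0.040 at dim probe sets, and Ccl20, the Ccr6 ligand, by 0.031. The eosinophil attractants Ccl11 and Ccl24 differed by -0.045 and -0.067. Ccl17 and Ccl22, the dendritic cell ligands of Ccr4, differed by -0.12 and -0.17, lower within each replicate number for both. Without wildtype 2 the difference of Ccl17 was -0.025, and without diabetic 1 that of Ccl22 was -0.044. The arrays numbered 3 differed by -0.0011 for Ccl22. The lymphoid ligands Ccl21a and Ccl21c, near-identical copies that the probes may not separate, differed by -0.14 and 0.0078. Ccl25, which guides thymocytes and gut T cells, differed by -0.033.

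The ligands outside both classes were Cx3cl1, a membrane-bound ligand on endothelium, and Xcl1, made by NK and CD8 T cells. They differed by -0.020 and -0.10. Their receptors Cx3cr1, on monocytes and macrophages, and Xcr1, on cross-presenting dendritic cells, differed by 0.19 and -0.044. Cx3cr1 gave 4.14, 4.19 and 4.01 in wildtype and 4.28, 4.46 and 4.16 in diabetic liver. It was higher within each replicate number, while wildtype 2 lay above diabetic 3, so the groups overlapped (limma adjusted p = 0.928).

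Among the 20 receptor genes 10 had a higher and 10 a lower mean, and 18 of the 20 were below the array median. Cxcr5 gave 4.76, 5.05 and 5.31 on wildtype 1 to 3 and 4.51, 4.68 and 4.62 on diabetic 1 to 3, without overlap. Diabetic minus wildtype came to -0.44, and the 95% interval ran from -0.79 to -0.085 (limma unadjusted p = 0.0224, adjusted p = 0.928). It ran from -0.58 without wildtype 1 to -0.30 without wildtype 3, where the unadjusted p reached 0.0709. With the replicate block limma's unadjusted p was 0.0165 and the adjusted p 0.822. The B cell marker Cd22 differed by 0.034 and the mean over the 6 measured T, B and NK cell markers lay between 3.76 and 3.90 in wildtype and between 3.82 and 3.90 in diabetic liver. Cxcl13, the ligand of Cxcr5, differed in the other direction, by 0.42, within its large spread.

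Cxcr2, the neutrophil receptor for Cxcl1, Cxcl2, Cxcl5 and Ppbp, gave 5.08, 5.98 and 5.29 in wildtype and 5.06, 5.02 and 5.38 in diabetic liver at its brighter probe set. Wildtype 2 alone was high, and the difference of -0.29 was -0.028 without it. At its dimmer probe set, near the bottom of the scale, it gave 3.02, 3.24 and 3.19 against 2.85, 2.70 and 2.87, a difference of -0.34 without overlap (limma unadjusted p = 0.0107, adjusted p = 0.928). With the replicate block the unadjusted p there was 0.0271. The brighter probe set carries the suffix for possible cross-hybridisation. The neutrophil markers Csf3r and Siglece differed by 0.078 and 0.041.

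The remaining CXC receptors differed by 0.092 for Cxcr1, -0.13 for the T cell receptor Cxcr3, 0.013 for Cxcr4 and -0.0085 for Cxcr6, found on liver NKT cells. Of the 11 CC receptors 7 had a higher and 4 a lower mean, 0 passed, and the groups overlapped for all 11. Their differences ran from -0.14 for Ccr7, which brings lymphocytes and dendritic cells to lymph nodes, to 0.071 for the eosinophil receptor Ccr3. The monocyte receptors Ccr1 and Ccr2 differed by 0.045 and -0.025. Between these lay Ccr10 at -0.080, Ccr4 at -0.0039, Ccr1l1 at 0.0080, Ccr6 at 0.033, Ccr8 at 0.063 and Ccr9 at 0.064. The second probe set of Ccr9, the dimmer one, gave 0.13 with no overlap between the groups, as did 4.57% of all probe sets in that direction. Its values lay near the bottom of the scale, at 2.29, 2.25 and 2.27 in wildtype and 2.37, 2.50 and 2.32 in diabetic liver (limma unadjusted p = 0.159, adjusted p = 0.928).

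Ackr4, an atypical receptor that takes up Ccl19, Ccl21 and Ccl25 without signalling through G proteins, gave 4.63, 4.91 and 5.27 in wildtype and 4.53, 4.76 and 4.87 in diabetic liver. The difference was -0.22 and negative within each replicate number, with overlapping groups (limma adjusted p = 0.928; -0.051 without wildtype 3). Its probe set is 1 of 14 among those of the 50 genes whose suffix marks possible cross-hybridisation. Ackr4 was the only atypical receptor among the 50 genes. Ccl2, Ccl6, Ccl19, Cxcl11, Cxcl16, Ackr1, Ackr2 and Ackr3 had no probe set named through RefSeq and so were not analysed here.

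Arrays of the same number gave differences of 1 sign in all 3 pairs for 19 of the 50 genes (38.0%), against 25.8% of all probe sets. Of these 7 were higher in diabetic liver (14.3% of all probe sets) and 12 lower (11.6%). The 7 were Ccl1, Ccl4, Ccl9, Ccr3, Ccr8, Cx3cr1 and Ppbp. The 12 were Ackr4, Ccl8, Ccl17, Ccl21a, Ccl22, Ccl24, Ccr7, Ccr10, Cxcl15, Cxcr3, Cxcr5 and Cxcr6. The 12 differences ranged from -0.44 for Cxcr5 to -0.0085 for Cxcr6, and none passed in the fit with the block.

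Genes that induce chemokines, or that act with them at the vessel wall, gave no call either. Of 17 measured genes of cytokine induction and signalling, 8 had a higher and 9 a lower mean, 0 passed, and the median difference was -0.0030. Il18, a macrophage cytokine that induces interferon, differed by 0.64, which was 0.29 without wildtype 2, and by -0.039 between the arrays numbered 3. Il4, the type 2 T cell cytokine, differed by -0.22. Of 12 leukocyte adhesion genes 6 were on each side with 0 passing, and the endothelial selectin Selp differed by -0.30. Of 19 measured genes of heparan sulfate synthesis and its core proteins, 9 had a higher and 10 a lower mean and 0 passed. Glce, the epimerase that makes iduronic acid, differed by 0.43 and the core protein Sdc1 by 0.44, while the core protein Gpc4 differed by -0.34. For Glce and Sdc1 the groups overlapped, and the arrays numbered 2 differed the other way, by -0.11 and -0.13. For Gpc4 the groups overlapped as well, and the arrays numbered 3 differed the other way, by 0.042 (limma adjusted p = 0.928 for each gene).

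By group, the macrophage marker means lay between 5.74 and 6.17 in wildtype and between 5.59 and 6.36 in diabetic liver, with 3 of 6 higher and 3 lower. None of the macrophage, neutrophil, T, B and NK, dendritic, endothelial or stellate markers passed the limma test. The dendritic list includes Xcr1, which is also 1 of the 50 genes. The hepatocyte list held 1 gene that passed, the lectin Mbl2, at a difference of 1.03 (limma adjusted p = 0.0412, 0.142 with the replicate block, and 0.0257 to 0.525 over the alternatives). The 6 listed cholangiocyte markers had no probe set named through RefSeq and so were not analysed here.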

How the data were processed

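Total liver RNA of 6 mouse samples was measured on Affymetrix arrays of 1246 probe sets, with 1 array for each. The authors, per the submitters' processing notes, made the deposited log2 values with RMA (background correction, normalization between arrays, probe set summary); its version is not given in the sources used here, and a change shared by most genes would not be visible. The log2 scale was read from the values. Of 984 probe sets with a RefSeq accession, 963 were named through RefSeq's GRCm38.p6 gene table. Limma 3.58.1 in R 4.3.3 (lmFit, eBayes) was run on all 1246 probe sets, with Benjamini-Hochberg adjustment over all of them; 4 passed, none of them a chemokine or receptor gene, and 0 with the replicate number as a block. Same-numbered arrays had correlated deviations (Pearson's r = 0.397, 0.138 and 0.162 for numbers 1 to 3, all above 0.1), so the blocked fit is given as well. Spearman's rho was 0.377, 0.026 and -0.0083, and different-number pairs reached 0.173, so the pairing is weak for numbers 2 and 3. On simulated arrays of 1246 probe sets, 63.5% of changes of 0.5, 89.8% of changes of 1 and 98.3% of changes of 2 were recovered. The number of changed probe sets and the form of the noise were chosen for the simulation. These rates are therefore not the chance of a call on the measured arrays, and they do not show that uncalled changes were absent.

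The counts cover all 50 genes, but 1 of them is not reported here by itself. The genes and lists were chosen with earlier results of these data known. Named were all genes above the array median, the 4 largest differences per direction, those with an unadjusted p under 0.05 in either fit, 38 set genes (30 measured) and up to 3 genes per list. Alternatives were other normalizations, filters, variance models, probe sets and leaving out arrays.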

Additional observations from a re-analysis of the deposited data

How the results depend on the processing

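The count of 0 chemokine and receptor genes past the threshold held under every alternative run, including an adjusted p under 0.10. The count at an unadjusted p under 0.05 (2) was 0 without dim probe sets and without both arrays numbered 3, 1 with the replicate block and with the ordinary linear model, 3 with the lowest probe set of a gene, and ran from 0 (without wildtype 2 or wildtype 3) through 1 (without diabetic 2) to 2 with 1 array left out. Without dim probe sets, 15 of the 50 genes remained, 7 of them with a higher mean, since fewer genes were tested. Over the whole array the 4 called probe sets became 0 with trend and robust, the replicate block, the ordinary linear model and without both arrays numbered 3, and 0 to 1 with 1 array left out (1 without wildtype 3). The cause was otherwise not tested. The block changed no call of the 50 genes. Leaving out both arrays numbered 3, and leaving Cxcl1 and Cxcl13 out of the correlations (r = 0.365, 0.025 and -0.017 for numbers 3, 2 and 1), were chosen after seeing the data.

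Signs of uncalled differences turned as follows among the genes named by the rule. With 1 array left out, differences ran from -0.045 to 0.049 for Ccl21c, -0.20 to 0.17 for Ccl25, -0.18 to 0.061 for Ccl5, -0.0032 to 0.069 for Ccr1, -0.089 to 0.033 for Ccr2, -0.041 to 0.094 for Ccr6, -0.045 to 0.0039 for Cx3cl1, -0.93 to 0.97 for Cxcl1, -0.088 to 0.074 for Cxcl10, -0.12 to 0.28 for Cxcl12, -0.31 to 0.79 for Cxcl13, -0.025 to 0.038 for Cxcl5, -0.047 to 0.081 for Cxcr4 and -0.036 to 0.018 for Cxcr6. Without both arrays numbered 3 they were 0.034 for Ccl25, 0.0025 for Ccr2, 0.0036 for Cx3cl1, -0.14 for Cxcl1, 0.084 for Cxcl10, -0.092 for Cxcl12, -0.012 for Cxcl13 and -0.052 for Cxcr4. Of the other genes, compared here only with arrays left out, Ccr1l1 gave -0.013 without both arrays numbered 3, and Ccl12, Ccl20, Ccr1l1, Ccr4 and Xcr1 turned with 1 array left out. Quantile normalization gave -0.0064 for Ccl21c, -0.0075 for Ccr1 and 0.024 for Cx3cl1. Array weights gave -0.051 for Cxcl1, -0.029 for Cxcl12, 0.0065 for Cxcl5 and 0.0042 for Cxcr6, and the median shift gave 0.0050 for Cxcl5. For Cxcl12 the lower probe set gave -0.37 and the mean of both -0.15. For the 35 genes below the array median, low signal limits what could be seen.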
